A study of Drosophila melanogaster with 12 samples.

Results

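The comparison described here is that of rfx knock-out (KO) with wild-type (WT) GFP-negative cells of the Drosophila larval brain, taken from early instar 3 larvae and sorted by FACS. It rests on 6 of 12 RNA-seq libraries, 3 KO GFP-negative and 3 WT GFP-negative, which were chosen by their labels for genotype and GFP. The other 6 libraries are KO and WT GFP-positive cells, likewise sorted from larval brains, where GFP marks cells that express Rfx; whether both fractions came from the same brains is not given. The tests took in 9912 of the 12610 genes in the table, those whose value reached 1 in 3 or more libraries of the 12. The labels give the genotypes as rfx knock-out and wild-type and the cell type as neuron; they do not name the rfx allele, the driver of GFP, the marker genes of the stocks, the sex of the larvae or how many brains were pooled. All groups are sorted cells from larvae that carry the GFP reporter. Whether the libraries of a group came from separate animals is not given, so p-values measure only the spread between these libraries.

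Rfx is a winged-helix transcription factor of the RFX family, known in flies and other animals for switching on genes that build the cilium. In Drosophila most ciliated cells are sensory neurons outside the brain, and intraflagellar transport, the movement of protein trains along the axoneme, is needed to build their cilia. GFP-negative brain cells are the remainder of a sort in which GFP marks the Rfx-expressing cells. They are the fraction in which Rfx is lowest, so the comparison asks how the 2 genotypes differ in cells that GFP did not mark.

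The GFP-negative libraries held 20301256 to 29180078 reads in the table. Each value given for a gene is a normalised read count on the scale of CPM. It is not divided by gene length, so levels are compared between libraries and not between genes. Genes named as rRNA took 0.296% to 0.544% of reads in KO and 0.599% to 0.976% in WT GFP-negative libraries. The first principal component of the 6 libraries held 51.5% of the variance and set WT replicate 1 apart, at a score of -39.3, while the other 5 lay between -7.03 and 25.7. Replicate 1 of both genotypes was sequenced on lane 7 and replicate 2 of both on lane 6, but replicate 3 was on lane 7 for KO and lane 6 for WT, so lane was partly confounded with genotype.

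Rfx itself (FBgn0020379, 3R, 10361760 to 10378068) was far below its GFP-positive level but was counted in every GFP-negative library. It stood at 52.3, 52.3 and 54.5 in KO, against 73.5, 74.1 and 73.5 in WT GFP-negative cells. All 3 KO libraries were below all 3 WT libraries. The log2 change was -0.47 ± 0.11 (SE) and did not pass the threshold in limma's moderated test (adjusted p = 0.0948), though DESeq2 gave 0.000651 and the fit with the replicate block 0.0436. Over all 17 alternatives the adjusted p ran from 0.000651 to 0.859, and the change from -0.58 to -0.46. In GFP-positive cells Rfx averaged 1126 ± 170 in KO and 2793 ± 217 in WT (SD, n = 3 each), so the GFP-negative level was 4.71% of the GFP-positive level in KO and 2.64% in WT. Which part of the gene the knock-out removes is not given, so reads counted over the whole gene do not test the genotype labels.

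Few genes differed between the genotypes in GFP-negative cells, and those that did often differed by a large factor. Of 9912 genes, 68 were called at an adjusted p under 0.05, which is 0.686%. Of these, 43 were higher in KO (0.434%) and 25 were lower (0.252%). At an unadjusted p under 0.05 there were 797 genes, 537 higher and 260 lower. The median absolute log2 change was 1.36 among the called genes and 0.15 among all genes tested, and the 95% interval of a gene's change reached a median of 0.38 to either side. On the log2 scale of the value plus 1, 47 called genes differed at least 2-fold, 16 at least 4-fold and 7 at least 8-fold. In each of the 68 genes the KO and WT libraries did not overlap, a trait that the test itself favours. The direction was therefore also the same in all 3 pairs of libraries with adjacent title numbers, which adds no further support. Separation of 3 from 3 libraries gives p = 0.1 by exact permutation, so many genes without a genotype difference would show it. The share of all 9912 genes that do is not reported here. Non-overlap is therefore given as a description only, here and for the genes below.

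edgeR on the recovered reads also called 68 genes (0.686%), 60 of them shared, and DESeq2 called 152 (1.53%), among them all 68. With the replicate block, in which libraries with adjacent title numbers are compared, 99 genes were called (0.999%), again with all 68 among them. Without WT replicate 1, the library that stood apart, 58 genes were called, 34 higher and 24 lower. When replicate 3 of every group was left out, so that each genotype pair shared a lane, 23 genes were called, and all 68 kept their sign.

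**Figure D1:**
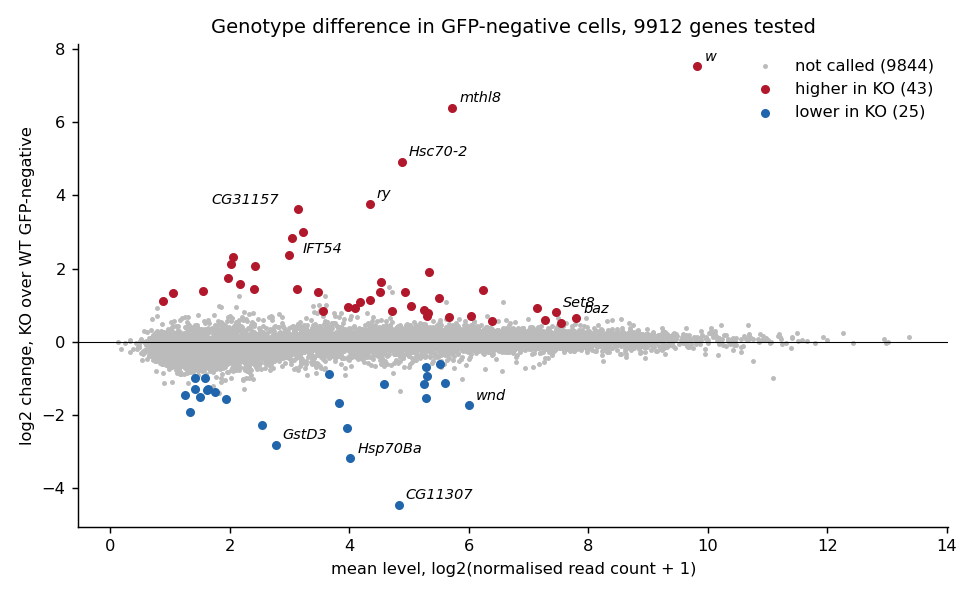
Log2 change of KO over WT GFP-negative cells against the mean level of each of 9912 genes, with called genes in red (43 higher in KO) and blue (25 lower in KO). Most genes lie close to 0, while w, mthl8 and Hsc70-2 stand far above and CG11307 and Hsp70Ba far below the rest.

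The gene with the largest log2 change was w (white, FBgn0003996, X, 2790599 to 2796466), which encodes an ABC transporter of eye pigment precursors and is widely used in flies as a visible marker of transgenes. It stood at 1077, 1413 and 2919 in KO, against 15.3, 4.78 and 6.40 in WT GFP-negative cells. The lowest KO library was far above the highest WT library, and KO replicate 3 was the highest of all. The means differed 204.6-fold, or 141-fold without KO replicate 3 and 323-fold without WT replicate 1 (log2 change 7.54 ± 0.39, SE; adjusted p = 3.40e-07). The second pigment gene that passed was ry (rosy, FBgn0003308, 3R, 13032528 to 13038020), which encodes xanthine dehydrogenase and has also served as a transgene marker. ry stood at 16.1, 30.4 and 64.4 in KO, against 2.27, 0.597 and 1.62 in WT. As for w, KO replicate 3 was the highest library, and no KO library overlapped WT. The fold was 24.7, or 15.6 without KO replicate 3 (log2 change 3.78 ± 0.49; adjusted p = 0.0016). The visible marker and pigment list had 10 members tested, of which w and ry were called; the median log2 change of the 10 was -0.13, against 0.04 over all genes. yellow (y), a cuticle pigment gene, stood at 1.30, 0.852 and 0.436 in KO, against 1.99, 1.66 and 2.52 in WT and did not pass (adjusted p = 0.446).

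mthl8 (FBgn0052475, 3L, 22428 to 26308), a member of the Methuselah-like family of G-protein-coupled receptors, was close to absent in WT. It stood at 115, 95.7 and 98.2 in KO, against 0.557, 0.0853 and 0.113 in WT GFP-negative cells. All KO libraries lay within a narrow range, far above WT. The fold was 409, or 1039 without WT replicate 1 (log2 change 6.39 ± 0.25; adjusted p = 4.47e-08). Its family member mthl14, also on 3L, stood at 6.85, 6.07 and 7.19 in KO, against 1.95, 1.32 and 2.33 in WT (log2 change 1.44; adjusted p = 0.00104).

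Near ry on 3R, Hsc70-2, CG31157 and CG7966 were also called higher, as was CG11656, which is named with its neighbours below. Hsc70-2 (FBgn0001217, 13044759 to 13047388), a constitutive member of the Hsp70 chaperone family, stood at 56.9, 51.8 and 58.6 in KO, against 1.87, 0.512 and 0.527 in WT. The KO libraries were close to each other and all above WT, 57.5-fold by means or 107-fold without WT replicate 1 (log2 change 4.92 ± 0.24; adjusted p = 3.40e-07). CG31157 (FBgn0051157, 13047731 to 13049294) stood at 15.0, 14.9 and 15.9 in KO, against 0.716, 0.128 and 0.188 in WT, a fold of 44.4, or 96.7 without WT replicate 1 (log2 change 3.62 ± 0.19; adjusted p = 3.40e-07). CG7966 (FBgn0038115, 13049398 to 13051453) stood at 6.51, 8.88 and 7.37 in KO, against 1.59, 0.768 and 0.865 in WT, 7.06-fold (log2 change 2.06; adjusted p = 0.000263). In Hsc70-2, CG31157 and CG7966 WT replicate 1 was the highest WT library.

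IFT54 (FBgn0038221, 3R, 14302428 to 14304458), a subunit of intraflagellar transport complex B, was the only member of the ciliary lists among the calls. It stood at 15.0, 13.4 and 11.8 in KO, against 0.994, 1.11 and 0.941 in WT GFP-negative cells. All WT libraries were near the floor of the test and all KO libraries well above them. The fold was 13.2 (log2 change 2.83 ± 0.16; adjusted p = 1.03e-06). IFT54 overlaps su(Hw), an insulator protein gene on the opposite strand, and the libraries keep no strand. su(Hw) averaged 70.2 ± 6.42 in KO and 68.1 ± 4.30 in WT (SD, n = 3 each; log2 change 0.04).

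**Figure D2:**
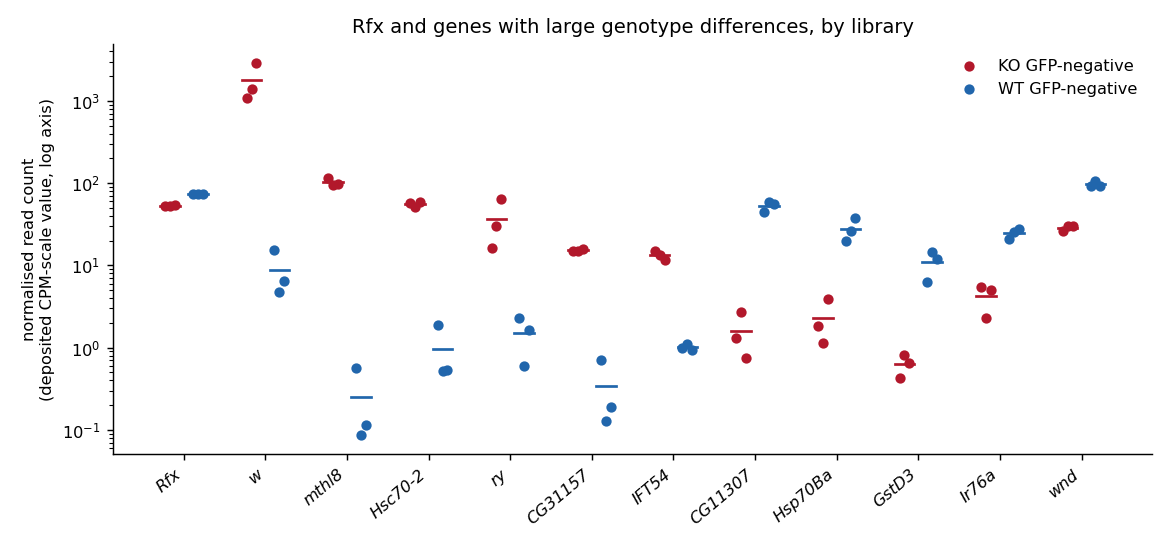
Normalised read counts on a log axis for Rfx and 11 genes with large differences, with KO libraries (red) left of WT libraries (blue) and a line at each mean of 3 libraries. Rfx differs by a small step, w to IFT54 are higher in KO, and CG11307 to wnd are lower in KO, with no overlap between the genotypes in any gene shown.

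Among the other 15 largest rises, sturkopf, a lipid droplet protein on 3L, stood at 63.7, 64.3 and 60.1 in KO, against 14.3, 15.5 and 18.6 in WT (3.88-fold; adjusted p = 5.99e-06). IntS12, a subunit of the Integrator complex that processes small nuclear RNAs, stood at 32.7, 35.0 and 33.7 in KO, against 8.27, 12.8 and 9.71 in WT (adjusted p = 0.00025). bam (bag of marbles), known for the switch from germline stem cell to differentiation, stood at 10.8, 9.80 and 14.6 in KO, against 3.26, 4.48 and 3.12 in WT (adjusted p = 0.00259). The genotypes did not overlap in any of these 3 genes. Cyp6g2, a cytochrome P450 gene, averaged 4.47-fold higher in KO (adjusted p = 0.00251). CG42556, CG6293, CG42846 and CG13032 were 14.2-fold, 7.29-fold, 16.4-fold and 11.3-fold higher in KO, and the genotypes did not overlap in any of the 4.

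Some abundant genes differed by smaller factors. Herc4, a ubiquitin ligase gene that neighbours sturkopf, stood at 180, 178 and 191 in KO, against 96.8, 86.9 and 103 in WT (log2 change 0.94 ± 0.09; adjusted p = 0.000157). Set8, which encodes the methyltransferase of histone H4 lysine 20, stood at 216, 217 and 232 in KO, against 139, 121 and 120 in WT (0.80 ± 0.11; adjusted p = 0.00257). baz (bazooka), the fly Par-3 polarity protein of neuroblasts and epithelia, stood at 272, 260 and 278 in KO, against 180, 154 and 185 in WT (0.64 ± 0.10; adjusted p = 0.00859). The call of baz was lost under 5 of 17 alternatives, such as scaling by total reads alone (0.257) and leaving out KO replicate 1 (0.0548) or KO replicate 3 (0.0584), in a range of 0.000465 to 0.359, and that of Set8 under 2, in a range of 6.75e-06 to 0.28. The libraries of each genotype lay close together in these genes, and the genotypes did not overlap. wac, a subunit of the augmin complex of the mitotic spindle, was 2.31-fold higher, Sting, a cyclic dinucleotide receptor of innate immunity, 1.97-fold, and nbs, part of the MRN complex of DNA repair, 1.98-fold.

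The largest fall on the log2 scale of the value plus 1 was that of CG11307 (FBgn0037106, 3L, 21617623 to 21619873). It stood at 1.30, 2.70 and 0.741 in KO, against 45.0, 58.4 and 55.8 in WT GFP-negative cells. All KO libraries were near the floor of the test while WT was at a moderate level. The means were 33.6-fold lower in KO, or 52.1-fold without KO replicate 2 (log2 change -4.45 ± 0.31; adjusted p = 5.99e-06).

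Hsp70Ba (FBgn0013277, 3R, 12465453 to 12467776), a heat-inducible Hsp70, stood at 1.85, 1.14 and 3.92 in KO, against 19.9, 26.3 and 37.9 in WT. All KO libraries were below all WT libraries, 12.2-fold by means or 18.7-fold without KO replicate 3 (log2 change -3.18 ± 0.34; adjusted p = 0.000325). The inducible Hsp70 genes are near-identical copies, so how reads were split between them is uncertain. Its copy Hsp70Ab stood at 45.6, 46.1 and 106 in KO, against 21.4, 22.3 and 46.5 in WT. Those groups overlapped, since WT replicate 3 was above the lower KO libraries, although KO was higher in each pair of the same replicate number. Hsp70Ab did not pass (log2 change 1.08; adjusted p = 0.445), but gave 0.000281 with the replicate block, the only setting of 17 that called it, in a range of 0.000281 to 0.999. Hsp70Bb averaged 426 ± 212 in KO and 324 ± 154 in WT and Hsp70Bc 416 ± 198 in KO and 343 ± 162 in WT (SD, n = 3 each), with spreads wider than the difference.

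GstD3 (FBgn0010039, 3R, 12373068 to 12373813), a delta-class glutathione S-transferase, stood at 0.432, 0.817 and 0.654 in KO, against 6.32, 14.7 and 11.9 in WT, 17.3-fold lower in KO (log2 change -2.81 ± 0.27; adjusted p = 0.000157). Ir76a (FBgn0260874, 3L, 19799278 to 19803427), an ionotropic receptor of olfactory neurons, stood at 5.43, 2.27 and 5.01 in KO, against 21.1, 25.4 and 27.8 in WT, 5.85-fold lower (log2 change -2.35 ± 0.25; adjusted p = 0.000274). wnd (wallenda, FBgn0036896, 3L, 19624406 to 19635783), the DLK kinase of axon injury signalling, stood at 25.9, 29.8 and 29.8 in KO, against 91.7, 107 and 93.4 in WT, 3.42-fold lower (log2 change -1.74 ± 0.12; adjusted p = 5.99e-06). In all 3 genes the KO libraries were below every WT library.

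The other falls were mostly smaller. CG6912 was 8.79-fold, CG14715 3.07-fold and lncRNA:CR42861 3.51-fold lower in KO. Ctl2, a choline transporter-like gene, stood at 22.2, 22.1 and 23.1 in KO, against 48.5, 50.5 and 55.0 in WT, and Syn1, a syntrophin, at 31.0, 30.5 and 27.9 in KO, against 63.3, 66.3 and 67.2 in WT. In Ctl2 and Syn1 the libraries of a genotype lay close together and the genotypes did not overlap. Nadsyn, the NAD synthetase gene, was 1.94-fold lower, and Sgf11, a subunit of the SAGA deubiquitinase, 1.95-fold lower, a call lost under 7 of 17 alternatives. Grip91, a subunit of the gamma-tubulin ring complex, stood at 37.2, 38.9 and 30.4 in KO, against 55.5, 54.1 and 52.0 in WT (adjusted p = 0.0389) and was lost with lane as a covariate, at 0.057 within a range of 1.67e-05 to 0.647 over 17 alternatives. lncRNA:CR44674 was at 0.0309, 0 and 0.0436 in KO, against 4.45, 1.58 and 3.01 in WT (adjusted p = 0.00362). KO held almost no reads of it, so no fold is given.

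Of the 68 genes, 58 are annotated as protein-coding, 6 as non-coding RNA and 2 as pseudogenes, and 2 identifiers were not found in the annotation used. The higher group averaged under 5 in 14 of them. An annotated gene or transposable element insertion overlaps 38 of the 68, and reads of overlapping genes cannot be told apart without strand. For wnd and CG7900 only such insertions do. How many of all genes tested are overlapped was not counted. Partners were themselves tested for 32 of these, in 35 pairs, and changed by between -1.30 and 0.59 (log2). For example, kirre, which overlaps w, averaged 26.4 ± 5.48 in KO and 30.7 ± 4.56 in WT. Ctr9, which overlaps sturkopf, averaged 300.2 ± 1.75 in KO and 284 ± 31.9 in WT (SD, n = 3 each).

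The called genes were unevenly placed in the genome. Chromosome 3, which carries Rfx, held 48 of the 68 calls (70.6%) and 43.2% of the genes tested. On arm 3L 21 of 1915 genes were called (1.10%), and on 3R 27 of 2371 (1.14%). Arm 2L had 6 of 1753 (0.342%), 2R 3 of 1934 (0.155%) and X 8 of 1646 (0.486%). On the Y chromosome 1 of 4 genes tested was called, higher in KO, and on chromosome 4 none of 91. The other 2 calls were among 198 genes not found in the annotation. Among the edgeR calls 67.6% were on chromosome 3, and among the DESeq2 calls 67.1%. Chromosome 3 calls went both ways, 28 higher and 20 lower, and the median change of all genes tested there was 0.04, as it was over all chromosomes. These shares are a description, and no test was made of them.

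On 3R the calls lay both close to Rfx and far from it. Within 250 kb of Rfx, 1 of 30 genes was called (3.33%), CG6293, which stood at 13.6, 12.8 and 10.5 in KO, against 2.74, 0.725 and 1.58 in WT. Between 250 kb and 1 Mb none of 166 was called with limma or edgeR. Of these 166, 14 had an unadjusted p under 0.05, a share near that of all genes (797 of 9912). Between 1 and 5 Mb, 15 of 704 were called (2.13%), and beyond 5 Mb 11 of 1471 (0.748%). With DESeq2 the calls were 2 of 30, 6 of 166, 24 of 704 and 24 of 1471 in the same order of distance, so the absence of calls between 250 kb and 1 Mb did not hold there. The interval from 1 to 5 Mb holds Hsp70Ba, GstD3, ry, Hsc70-2, IFT54 and CG6912.

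Neighbouring genes often shared the calls. With a gap of at most 50 kb, 10 groups of neighbours held 26 of the 68. The largest, 3R 12963791 to 13051453, had 6 called of 18 tested: Cyp304a1 was lower in KO, and CG11656, ry, Hsc70-2, CG31157 and CG7966 were higher. On 3L, CG42846, mthl14 and wac (230971 to 259097) were all higher in KO, as were sturkopf and Herc4 (1311719 to 1318330). On 2L, Vps29 of the retromer, IntS14 of the Integrator complex and Plap, a phospholipase A2 activator, were all higher (1150766 to 1170365), at 1.62-fold, 1.62-fold and 1.43-fold. These calls were close to the threshold (adjusted p = 0.0436, 0.0266 and 0.0337) and were lost under 8, 8 and 10 of 17 alternatives, with the GFP-negative libraries alone among them. Cyp304a1 (adjusted p = 0.0337) was lost under 9 of 16, with edgeR (0.0967) and the GFP-negative libraries alone (0.071) among them, in a range of 0.00339 to 0.573. On X, Grip91 and lncRNA:CR42861 (13736570 to 13745476) were both lower.

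**Figure D3:**
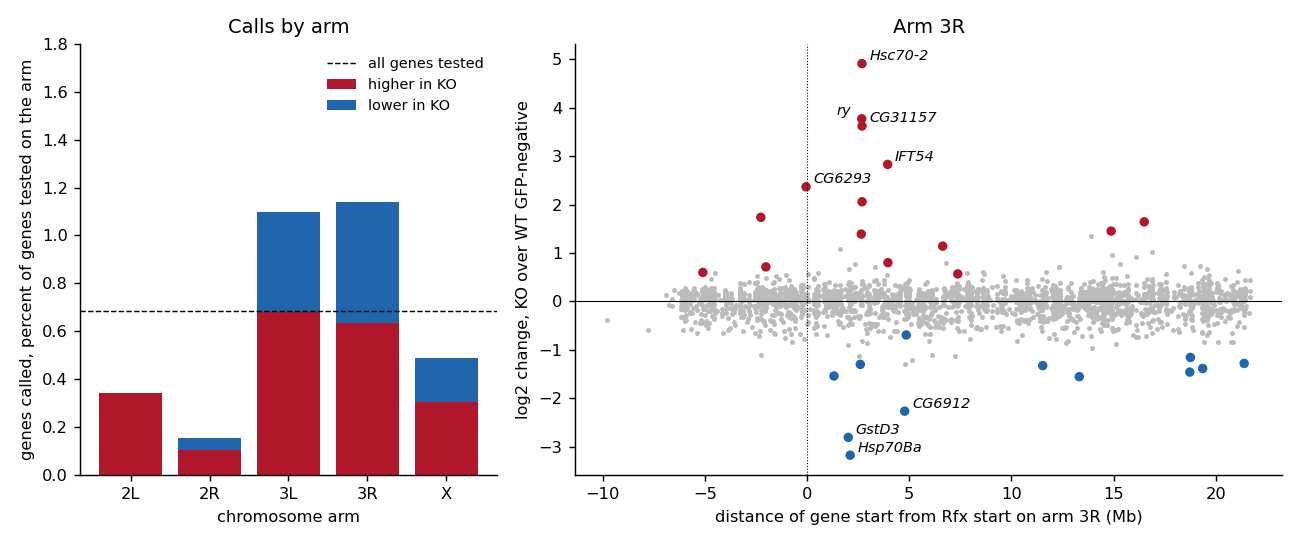
Left, genes called as a percentage of the genes tested on each chromosome arm, higher in KO (red) stacked with lower in KO (blue), with a dashed line at the 0.686% of all genes; right, log2 change of each gene tested on arm 3R against its distance from Rfx in Mb, called genes coloured. Arms 3L and 3R are above the line and 2L, 2R and X below it, and a column of called genes from Hsc70-2 down to Cyp304a1 lies within 1 to 5 Mb of Rfx.

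Gene lists for cilia, cell types and pathways held 7 of the 68 calls. Over 34 lists, 608 distinct genes were tested and 7 were called (1.15%, against 0.686% of all genes): IFT54, w, ry, Hsc70-2, Hsp70Ba, Cyp6g2 and GstD3. Median log2 changes of the lists ran from -0.35 to 0.14, against 0.04 over all genes. In the 30 lists with no limma call, edgeR called 1 member and DESeq2 2, and 21 list entries had an unadjusted p under 0.05, in 12 of the 30. At the 0.686% of all genes, lists of these sizes would hold few calls or none. The absence of a call in a list therefore says little about its members.

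Ciliary genes gave 1 call. Of 15 intraflagellar transport genes, 1 was called, IFT54, and the median log2 change was -0.08. nompB, the fly IFT88 subunit, stood at 0.648, 0.497 and 1.22 in KO, against 1.87, 1.07 and 1.54 in WT, and IFT52 at 1.51, 1.28 and 1.88 in KO, against 2.62, 1.11 and 1.35 in WT. The genotypes overlapped in both genes. Of 5 transition zone genes none was called with limma, edgeR or DESeq2, and 2 had an unadjusted p under 0.05. Cep290, which tethers the transition zone to the membrane, stood at 13.6, 16.8 and 10.6 in KO, against 10.1, 7.72 and 8.84 in WT (log2 change 0.55; adjusted p = 0.458). Fam92, a partner of Chibby at the basal body, stood at 2.35, 1.31 and 1.00 in KO, against 2.38, 2.56 and 2.48 in WT (-0.48; adjusted p = 0.612). Among 9 genes of the BBSome, ciliary GTPases and rootlet and 10 of axonemal dynein and motility none was called by the 3 tools. None of them had an unadjusted p under 0.05, and their medians were -0.19 and -0.35. In the order given, 5 of 15, 3 of 5, 2 of 9 and 1 of 10 ciliary genes were positive, against 5663 of all 9912. With DESeq2 3 of 15, 2 of 5, none of 9 and 1 of 10 were, against 4423 of 9912. The DESeq2 medians were -0.19, -0.03, -0.47 and -0.66, against -0.03 over all genes.

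Markers of the GFP-positive population gave no call either, in any of the 3 tools, with none of 11 members at an unadjusted p under 0.05 and a median of -0.22. That list was chosen on these libraries. otp (orthopedia), a homeodomain factor, stood at 37.0, 35.7 and 35.5 in KO, against 48.5, 48.5 and 47.2 in WT. The genotypes did not overlap, and each was tight. limma gave adjusted p = 0.825, and 0.337 with the 6 GFP-negative libraries alone, the lowest of 16 alternatives with a value, which reached 0.999. In KO GFP-positive libraries, which share the estimate of spread, otp averaged 12.6 ± 14.9 (SD, n = 3). VGlut, the vesicular glutamate transporter, stood at 305, 408 and 211 in KO, against 311, 367 and 322 in WT. The retinal determination factor eya stood at 79.3, 96.0 and 70.9 in KO, against 80.4, 112 and 95.4 in WT. Whether remaining GFP-marked cells contribute to these levels was not tested.

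Although the label calls the cells neurons, markers of neurons, progenitors and glia were all present in GFP-negative cells of both genotypes. The pan-neuronal RNA-binding gene elav stood at 594, 589 and 703 in KO, against 658, 704 and 615 in WT, with overlap. The neuroblast factor wor (worniu) stood at 519, 609 and 564 in KO, against 410, 476 and 443 in WT, and ase (asense) at 385, 366 and 446 in KO, against 277, 336 and 329 in WT. Both progenitor genes were higher in every KO library than in any WT library, but did not pass (adjusted p = 0.529 and 0.577 with limma). By exact permutation such a separation of 3 from 3 libraries gives p = 0.1, so it is no support by itself. At log2 changes of 0.35 and 0.34 they were the highest of the 16 neuroblast genes tested. The other neuroblast markers dpn, mira and insc changed by 0.0, 0.18 and 0.08. The glial factor repo stood at 20.9, 21.8 and 20.5 in KO, against 19.4, 17.4 and 16.5 in WT (adjusted p = 0.911). In such bulk samples, fewer cells of a type and less RNA per cell cannot be told apart.

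Most progenitor and division genes had a positive change in KO, but none passed. Of 16 neuroblast genes, none was called, 2 had an unadjusted p under 0.05, both higher, and 11 had a positive change, with a median of 0.09. Of 29 cell cycle genes none was called, 2 were at an unadjusted p under 0.05 and 23 were positive, with a median of 0.14. Over all genes tested 5663 of 9912 were positive. Scaled by total reads alone, without the authors' scaling factors, 9 of the 16, 20 of the 29 and 4347 of the 9912 were. CycB3, a mitotic cyclin, stood at 220, 244 and 222 in KO, against 153, 188 and 145 in WT (log2 change 0.50; adjusted p = 0.171), and pav, a kinesin of the cytokinetic midzone, at 216, 211 and 230 in KO, against 121, 148 and 152 in WT (0.64; adjusted p = 0.262). Neither gene's groups overlapped. Hey, a Notch target of newborn neurons, stood at 682, 675 and 664 in KO, against 538, 570 and 464 in WT (0.37; adjusted p = 0.368); of the 12 genes in its list none was called and 2 were at an unadjusted p under 0.05. edgeR and DESeq2 called none in these 3 lists.

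Of 20 glial genes, limma called none, with 2 at an unadjusted p under 0.05. drpr (draper), the engulfment receptor by which glia clear debris, stood at 218, 207 and 197 in KO, against 148, 147 and 152 in WT, without overlap. It just missed in limma (log2 change 0.47 ± 0.10; adjusted p = 0.0636) and passed with edgeR (0.0414), DESeq2 (0.00377) and the replicate block (0.0301), in a range of 0.00377 to 0.389 over 17 alternatives. bnb, a gene of glia, stood at 6.98, 4.87 and 6.02 in KO, against 13.2, 7.64 and 9.74 in WT (adjusted p = 0.465). The summed level of the glial list was 1442 to 1503 in KO and 1123 to 1374 in WT libraries, but its members did not move together: 12 of 20 had a positive change, with a median of 0.09, or 10 of 20 and 0.02 with DESeq2. Among those below 0 were alrm, an astrocyte gene, at -0.29, wrapper, a gene of cortex and midline glia, at -0.40 and the glutamate transporter Eaat2 at -0.20 (log2 change).

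Markers of tissues outside the brain gave no limma call. Hml, a hemocyte gene, stood at 4.94, 1.71 and 2.66 in KO, against 5.57, 2.26 and 2.71 in WT, and Mhc, the muscle myosin heavy chain, at 2.69, 1.56 and 2.75 in KO, against 6.72, 1.15 and 3.16 in WT. The highest library was WT replicate 1 in both. Hemocyte, fat body, muscle and tracheal lists had no limma or edgeR call among 9, 7, 12 and 7 genes, with 1, 0, 2 and 1 at an unadjusted p under 0.05. Their medians were -0.14, -0.22, -0.35 and -0.11. DESeq2 called Tm1, a tropomyosin, at 0.012 (168, 177 and 186 in KO against 190, 212 and 222 in WT), where limma gave 0.563 and the 17 alternatives 0.012 to 0.881. Summed levels of the muscle list were 300.2 to 309.8 in KO and 328 to 381 in WT, without overlap, and of the hemocyte list 113 to 152 in KO and 109 to 133 in WT. The collagen Col4a1 stood at 46.6, 25.5 and 34.6 in KO, against 19.0, 5.50 and 14.5 in WT (log2 change 1.49; adjusted p = 0.443).

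Neuronal identity and signalling lists gave no call. Of 17 neurotransmitter genes and 29 neuropeptide genes, limma, edgeR and DESeq2 called none, and none had an unadjusted p under 0.05. Changes above 0 were found in 5 of the 17 (median -0.18), 7 of the 29 (median -0.23) and 5 of 18 pan-neuronal genes (median -0.06), against 5663 of all 9912 genes tested. Scaled by total reads alone, none of the 17, 5 of the 29 and 3 of the 18 were positive. Gad1, which makes GABA, stood at 416, 675 and 180 in KO, against 296, 446 and 357 in WT. KO replicate 3 was the lowest and KO replicate 2 the highest of all. The 95% interval of its change ran from -0.90 to 0.97 (log2). Dh44, a neuropeptide of the CRF family, stood at 18.6, 34.9 and 6.98 in KO, against 27.4, 36.5 and 29.2 in WT. Axon guidance had 4 of 35 genes at an unadjusted p under 0.05, all higher in KO, and none called by the 3 tools. Its lowest p was that of otk, an atypical receptor kinase, at 403, 362 and 375 in KO, against 251, 259 and 252 in WT (log2 change 0.58; adjusted p = 0.212).

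Regulators of body pattern and sex showed no call in limma, edgeR or DESeq2. Of 55 homeodomain and POU genes 1 had an unadjusted p under 0.05, as had 1 of 18 temporal patterning genes, and none of 10 Hox genes and cofactors did. Of 14 genes of dosage compensation and sex determination none had one. Over all genes tested 0.686% were called with limma and 797 of 9912 had an unadjusted p under 0.05. Lists this short would hold few calls or none at that share. The male-specific RNA roX1 stood at 2388, 2471 and 2515 in KO, against 2061, 2267 and 2663 in WT, and roX2 at 278, 329 and 379 in KO, against 192, 271 and 430 in WT. The genotypes overlapped in both.

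Stress and detoxification genes gave 4 calls, 2 in each direction. Of 24 heat shock and stress genes, Hsc70-2 was higher and Hsp70Ba lower, and the median of the list was 0.05. Hsp68 averaged 2060 ± 958 in KO and 1835 ± 813 in WT (SD, n = 3 each). Of 37 detoxification genes, Cyp6g2 was higher and GstD3 lower, with a median of -0.06. GstD9, a neighbour in the delta class, stood at 4.91, 7.07 and 4.75 in KO, against 6.36, 16.8 and 12.5 in WT, where the groups overlapped (adjusted p = 0.425). Cytosolic ribosomal protein genes, 78 in number, had a median of -0.11, and 34 subunits of mitochondrial complex I one of 0.09; none of either was called by the 3 tools or had an unadjusted p under 0.05.

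**Figure D4:**
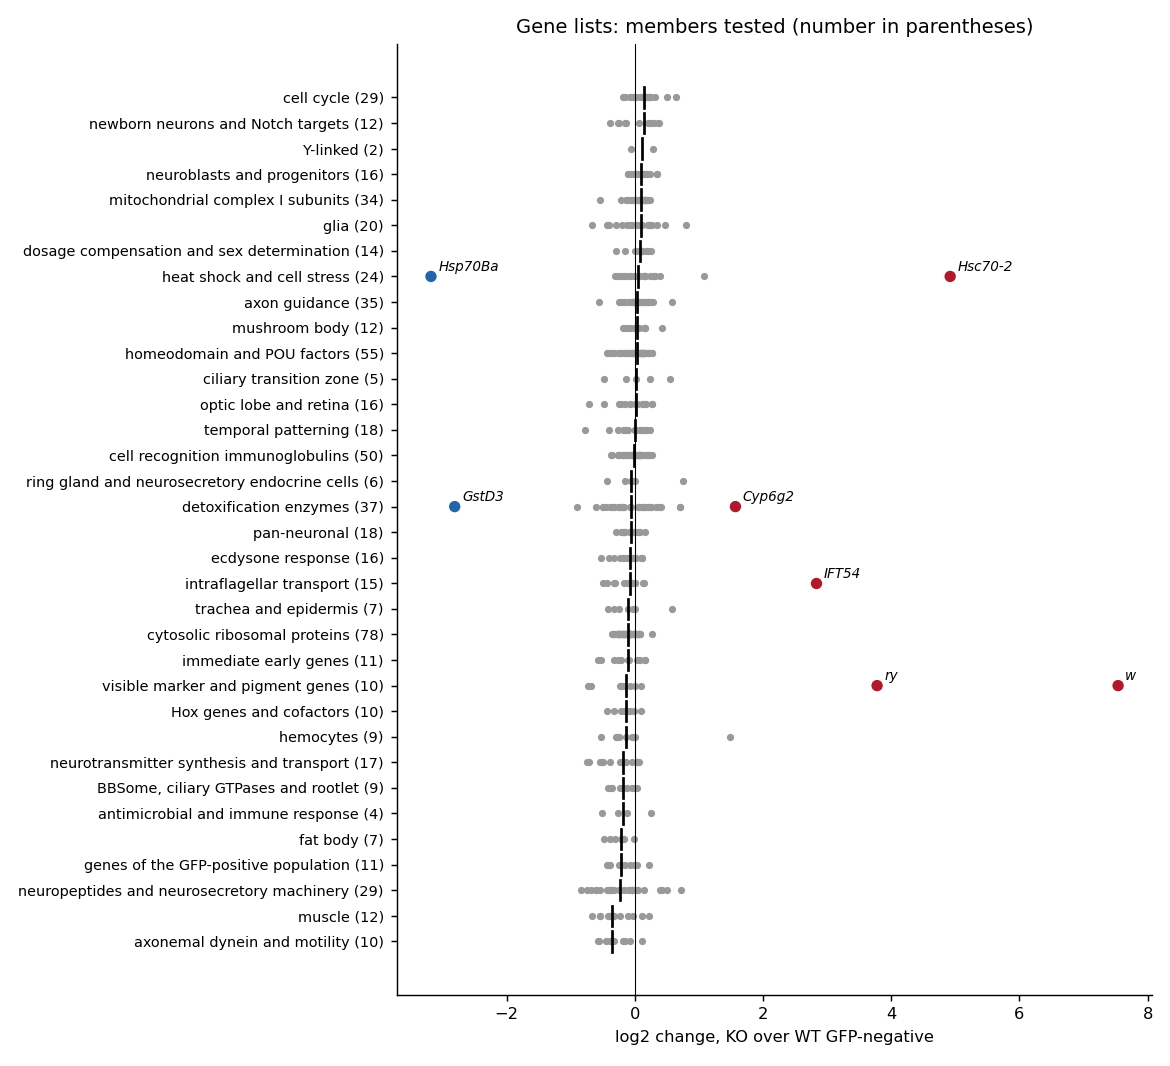
Log2 change of KO over WT GFP-negative cells for each tested member of 34 lists (grey points), with the list median as a black bar and called genes coloured, red for higher and blue for lower in KO. Medians lie between -0.35 and 0.14, and the 7 called genes stand apart from the other members of their lists.

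The same genotype contrast in GFP-positive cells takes its means from the other 6 libraries, while the spread in the fit comes from all 12, so the contrasts are not fully separate. It gave more calls, 304 of 9912 (3.07%), or 505 with DESeq2 (5.09%) and 475 with the replicate block (4.79%). Of the 68 genes called in GFP-negative cells, 54 were also called in GFP-positive cells, all in the same direction, which is 79.4% of the GFP-negative and 17.8% of the GFP-positive calls. All 68 had the same sign in both fractions. mthl8 had a log2 change of 6.39 in GFP-negative and 6.71 in GFP-positive cells, CG11307 -4.45 and -5.15, IFT54 2.83 and 3.66, and w 7.54 and 5.11. The interaction of genotype with fraction called 55 genes (0.555%), or 53 with edgeR (0.535%), 117 with DESeq2 (1.18%) and 101 with the replicate block (1.02%). None of the 68 was among the 55 limma calls, where their smallest adjusted p was 0.103 and 13 had an unadjusted p under 0.05. edgeR also placed none of the 68 among its interaction calls, DESeq2 placed 2, baz and CG10512, and the fit with the replicate block 3, baz, CG10512 and w. Of the calls shared by both fractions 68.5% were on chromosome 3, against 48.8% of those called only in GFP-positive cells.

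The other 14 of the 68 passed in GFP-negative cells only. CG10512 stood at 44.3, 40.5 and 44.2 in KO, against 14.1, 18.3 and 16.2 in WT GFP-negative cells, a log2 change of 1.36, and had 0.23 in GFP-positive cells. CG7213 had -1.51 in GFP-negative and -0.23 in GFP-positive cells, and nbs 0.97 and 0.44. Of these 3 genes the interaction passed for CG10512 alone, and only with DESeq2 and the replicate block, so a difference between the fractions was not shown for the other 2. On chromosome 3 were 11 of the 14 (78.6%).

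**Figure D5:**
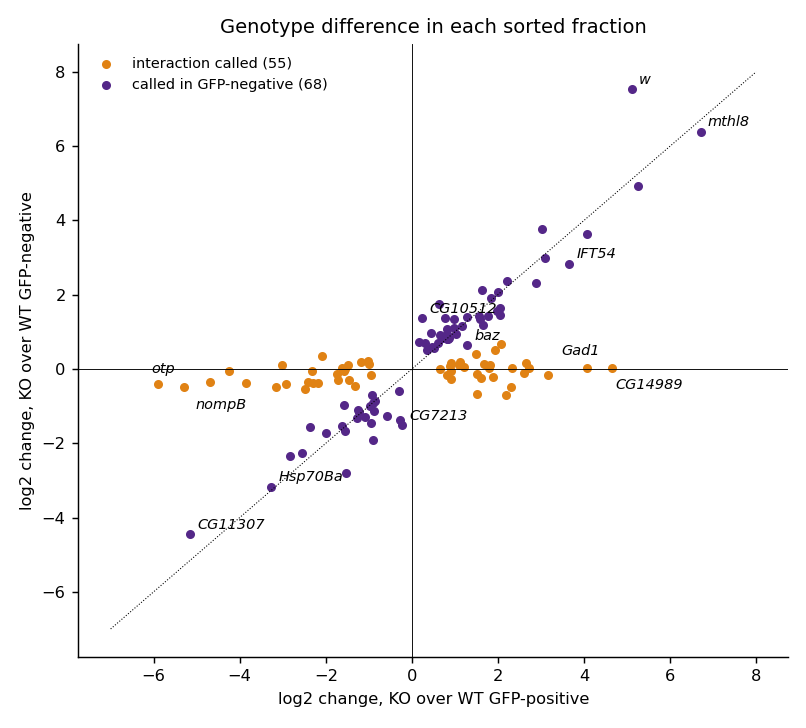
Log2 change of KO over WT in GFP-negative cells against that in GFP-positive cells, for the 68 genes called in GFP-negative cells (purple) and the 55 interaction calls (orange), with a dotted line of equality. The purple genes run along the line from CG11307 to mthl8, and the orange genes lie along the horizontal axis, with changes in GFP-positive cells and little change in GFP-negative cells.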

How the data were processed

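RNA was taken from GFP-sorted cells of dissociated larval brains; per the labels' protocols, 4 ng of total RNA went into each library, made with SMARTer Ultra Low and then Nextera reagents, which keep no strand. The authors deposited a table of normalised counts. The submitters' processing notes name the build BDGP6 and, without their roles, edgeR 3.10.5, HTSeq 0.6.1 and TopHat2 2.0.13. Each deposited signal is a whole multiple of 1 value per library for 100% of values (tolerance 0.001), so it is a read count divided by an effective library size, and 20301256 to 29771321 whole reads per library were recovered. Deposited column totals of 807057 to 1264329 show scaling factors beside depth. The rule that chose the 12610 genes in the table is not given in the sources used here.

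The values are not raw counts, so limma-trend (limma 3.58.1, R 4.3.3) was run on log2 of the value plus 1, with group means of all 12 libraries in 1 fit, two-sided, Benjamini-Hochberg adjusted over the 9912 genes with a value of at least 1 in at least 3 libraries. Fold changes on this scale understate the change of low genes; a fold given as such is the ratio of mean deposited values. Exact permutation of 3 against 3 libraries cannot go below p = 0.1. On the recovered reads edgeR 4.0.16 called 68 genes and DESeq2 1.42.0 called 152. limma, edgeR and DESeq2, each without covariates, were tested on simulated data for the GFP-negative contrast only. That simulation gave every gene the same dispersion and held no run or lane effect. The other contrasts and alternatives were not simulated. Gene positions are from Ensembl release 115 (BDGP6.54, of the BDGP6 assembly), which held 12389 of the 12610 identifiers.

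Replicate numbers follow accession order; replicate 1 of every group has a title number of 13 to 16, replicate 2 of 1 to 4 and replicate 3 of 5 to 8. Deviations from the group mean correlated between KO and WT libraries of the same run of title numbers at 0.313, 0.598 and 0.245, so these runs were also used as a block. The labels do not say what a run shares.

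Rfx is named always, then the 15 largest called changes in each direction with a higher-group mean of at least 5, up to 4 members per list by p, calls within 1 Mb of Rfx, and the 6 leading genes of both fractions and of the interaction. Other genes (mthl14, Herc4, Set8, baz, wac, Sting, nbs, CG10512, CG7213, CG11656, Cyp304a1, Vps29, IntS14, Plap, lncRNA:CR44674, Hsp70 copies, overlapping genes and markers) were chosen after their values were seen. The comparison, members and gene lists were chosen with earlier results of these data known.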

Additional observations from a re-analysis of the deposited data

Results flagged for a closer look

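In 15 of the 213 genes looked at one by one, the genotype difference in GFP-negative cells differed from that in GFP-positive cells by the interaction test of limma (adjusted p under 0.05). Over all genes tested it was 55 of 9912 (0.555%). The 213 include the 6 leading interaction calls and markers chosen on these libraries, so their share was partly fixed by the choice. The difference given is the log2 change of KO over WT in GFP-negative cells minus that in GFP-positive cells. For Rfx it was 0.85, from -0.47 in GFP-negative and -1.32 in GFP-positive cells (adjusted p = 0.0236). In GFP-positive cells 13 of 39 ciliary list members were called lower and 1 higher, against 131 and 173 of all 9912 genes. By sign alone, called or not, 7 of the 39 were positive there. The interaction test was passed by 10 of the 39, against 55 of all 9912. The 6 looked at one by one that passed had larger differences, from the change in GFP-negative and that in GFP-positive cells: 4.80 for nompB (-0.49 and -5.29), 4.22 for IFT52 (-0.04 and -4.26), 2.50 for dnd (-0.42 and -2.92), 2.68 for Fam92 (-0.48 and -3.16), 1.59 for B9d1 (-0.14 and -1.74) and 3.47 for hmw (-0.37 and -3.85). The homeodomain gene otp differed by 5.48 (-0.41 and -5.89), the organic anion transporter Oatp26F by 4.34 (-0.35 and -4.69) and the cell recognition gene DIP-theta by 1.24 (0.22 and -1.02).

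The sign was opposite for genes that rose in GFP-positive cells. Gad1 differed by -4.02 (0.03 in GFP-negative and 4.06 in GFP-positive cells), CG14989 by -4.61 (0.03 and 4.64), Hdc, the histidine decarboxylase, by -2.89 (-0.71 and 2.18), bnb by -2.18 (-0.67 and 1.51) and the eye and mushroom body factor ey by -0.75 (0.16 and 0.92). None of the 15 passed in GFP-negative cells with limma; 3 of them, Rfx, Fam92 and bnb, had an unadjusted p under 0.05 there.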

How the results depend on the processing

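No called gene changed sign under any alternative. The 68 calls between KO and WT GFP-negative cells (43 higher, 25 lower) became 152 with DESeq2 (84 higher, 68 lower) and 23 without title numbers 5 to 8 (15 higher, 8 lower), a fit of 8 libraries. Lower calls were 16 with a floor of 5 and 16 with the GFP-negative libraries alone. Leaving out each library in turn gave 49 to 71 calls, 31 to 42 higher and 18 to 29 lower, and 48 of the 68 were kept each time. The replicate block by title numbers gave 99 calls, among them all 68. The 55 interaction calls became 117 with DESeq2, 101 with the replicate block and 4 without title numbers 5 to 8, and the 304 GFP-positive calls 505, 475 and 122. On chromosome 3 the 48 calls became 102 with DESeq2 and 20 without title numbers 5 to 8, and 37 to 56 without a library. The 7 called list members stayed at 7 without any 1 library. The cause of these shifts was not tested. Beside the block values given with the results, the replicate block ended no call. For genes near a value of 1, the 1 added before log2 understates the change in limma, so small changes there may not have been detectable.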
